A study of Homo sapiens with 40 samples.

Results

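The genes described here encode the proteasome, the COP9 signalosome and the ubiquitin-conjugating (E2) enzymes. They were chosen by name, as all transcript models whose gene identifier starts with PSMA to PSMG and a digit, with COPS and a digit, or with UBE2, and has no hyphen or low line in it. This took 85 of 9460 genes and 183 of 19972 models: 45 proteasome genes with 90 models, 9 COP9 genes with 29 models and 31 UBE2 genes with 64 models. Of these genes, 83 encode subunits, chaperones, regulators or E2 enzymes of the 3 families. PSMC3IP, a factor of meiotic recombination, and UBE2Q2P13, a pseudogene, entered by name only.

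The ubiquitin system marks proteins for destruction. An E1 enzyme activates ubiquitin, an E2 enzyme carries it, and an E3 ligase passes it to the substrate. The proteasome, a barrel of alpha and beta rings capped by a regulatory particle, unfolds and degrades the marked protein. The COP9 signalosome removes the ubiquitin-like protein NEDD8 from cullin-RING ligases, the largest group of E3 enzymes. Embryonic stem cells are known for high proteasome activity.

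The study separated RNA of H9, an established line of embryonic stem cells from human, by the number of ribosomes it carries. Neural progenitor cells (NPC), derived from H9 embryonic stem cells (ESC) by dual-SMAD inhibition, and untreated control ESC each gave RNA of the cytosol, of monosomes, of polyribosomes with 2 to 4 ribosomes (light) and of polyribosomes with at least 5 (heavy). The 40 libraries comprised 2 long-read and 3 short-read libraries of each of the 8 combinations. The values analysed are the positions of exons and coding regions in 1 set of models labelled as long-read, which carries no value per library. NPC and ESC, or fractions, were therefore not compared and depth is unknown. Lack of a model does not show that a gene is off. POU5F1 and NANOG, which mark ESC, and PAX6 and OTX2, which mark neural progenitors, each had at least 1 model; which libraries the models came from is not recorded in them. Genes of 1 family are related by descent and are not replicates, so families are described by counts, medians and Wilson intervals, which cover counting error only, and no test is given.

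Most listed genes of the 3 families had a model, but the share of all known genes with one was not worked out. Of 48 proteasome genes on a list of known members, 44 were present, as were all 9 COP9 genes named COPS and 30 of 35 UBE2 genes. The proteasome genes without a model were PSMA8, a testis-specific alpha subunit, PSMB11, the thymus-specific beta subunit, PSMD1, a large subunit of the regulatory particle, and PSME4, which encodes the large activator PA200. UBE2NL, UBE2O, UBE2Q1, UBE2R2 and UBE2U also had none; UBE2O is a large enzyme with both E2 and E3 activity. No model in the set was longer than 5877 nt. Among the 8579 genes with a coding region, the model with the longest one had at least 2 exons, so single-exon genes may be missing. Whether length or exon number bears on which genes lack a model was not tested. Models were found for all 3 inducible subunits of the immunoproteasome, which replace the standard catalytic beta subunits: PSMB8 and PSMB10 had 2 and PSMB9 had 1.

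Proteasome and UBE2 genes had about as many models as other genes, and COP9 genes had more, although the 9 COP9 genes spread widely. The means were 2.00 ± 1.07 models for proteasome genes (SD over genes, n = 45), 3.22 ± 1.99 for COP9 genes (n = 9) and 2.06 ± 1.03 for UBE2 genes (n = 31), against 2.11 ± 1.70 for all 9460 genes. At least 2 models were present for 27 of 45 proteasome genes (60.0%, 95% Wilson interval 45.5 to 73.0%), 8 of 9 COP9 genes (88.9%, 56.5 to 98.0%) and 20 of 31 UBE2 genes (64.5%, 46.9 to 78.9%), against 50% of all genes. The median was 2 in each family and in all genes.

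**Figure D1:**
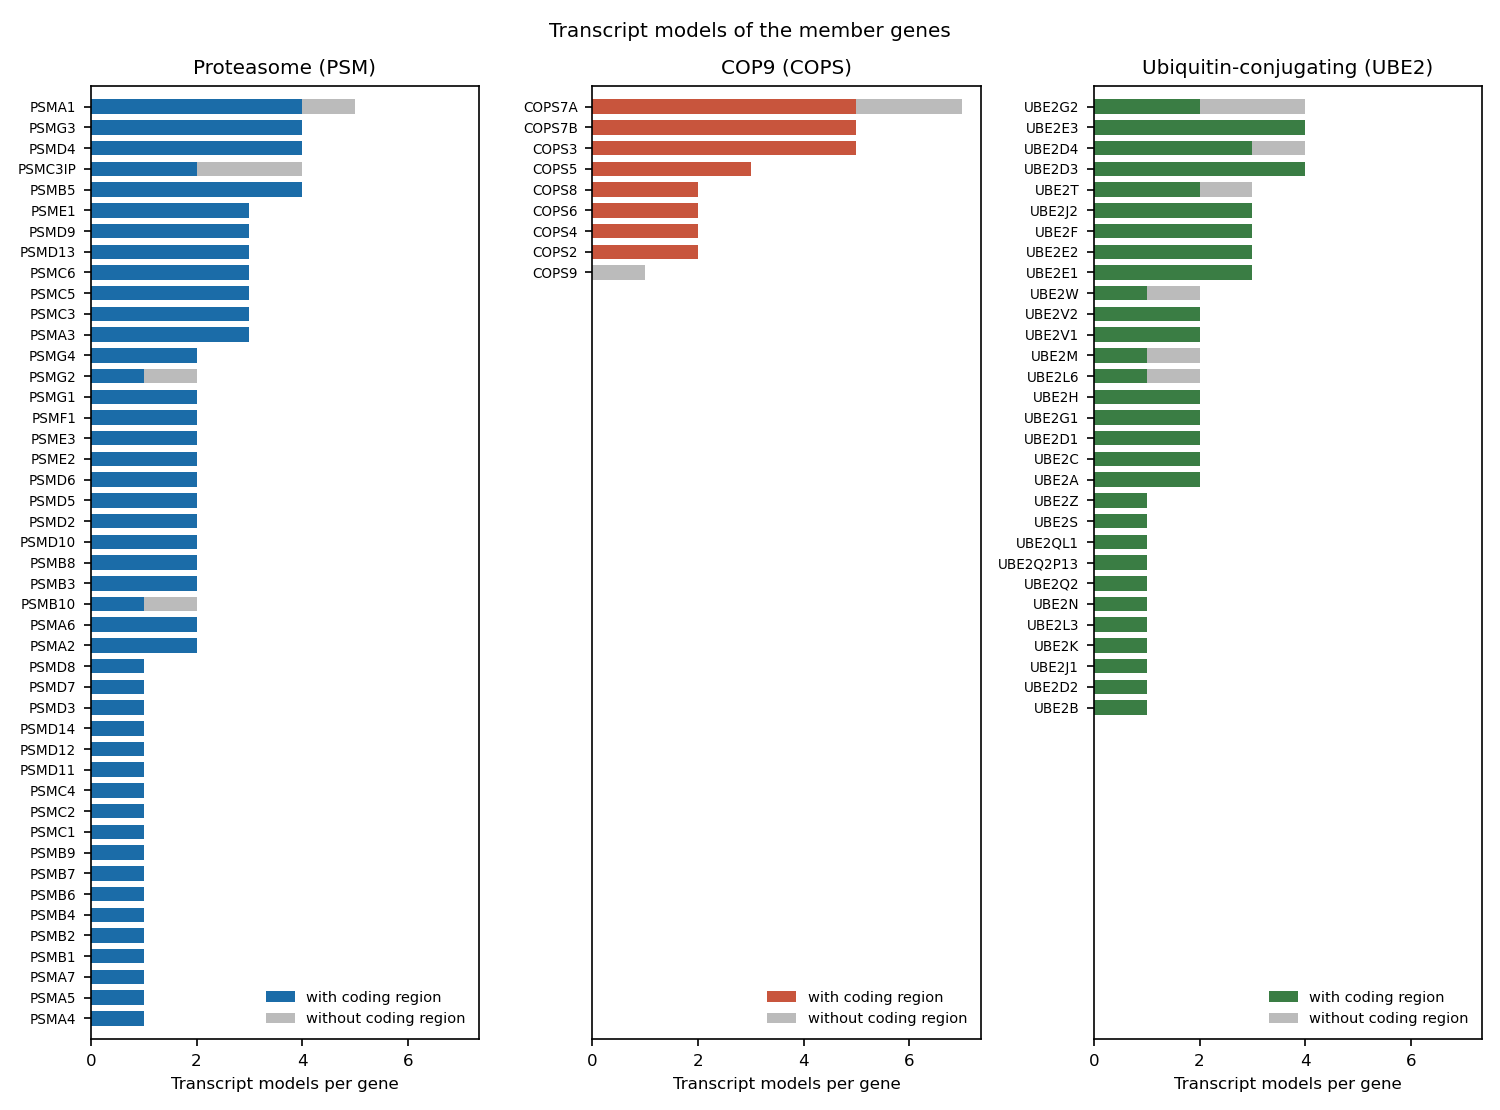
Number of transcript models (x axis) of 84 of the 85 genes (y axis), by family; coloured bars are models with a coding region and grey bars models without one. COPS7A has the most with 7, and 30 genes have 1 model.

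Within the proteasome, all 7 assembly chaperones with PSM names had a second model, although that of PSMG2 had no coding region and did not overlap the coding one, and POMP, a chaperone of the core with another name, had 1 model. PSMD5, PSMD9 and PSMD10, which help to build the base of the regulatory particle, and PSMG1 to PSMG4, which help to build the rings, had 17 models among 7 genes. All 4 detected activator or inhibitor genes (PSME1, PSME2, PSME3 and PSMF1) also had at least 2. In the alpha ring 4 of 7 detected genes had a second model, in the standard beta ring 2 of 7, among the ATPases of the regulatory particle 3 of 6 and among its other subunits 4 of 10. PSMA1, an alpha subunit, led with 5 models, followed by PSMB5, the chymotrypsin-like catalytic subunit, PSMD4, a ubiquitin receptor, PSMG3 and PSMC3IP with 4 each. The catalytic subunit genes PSMB6 and PSMB7 had 1 model each.

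Among COP9 genes, COPS7A had 7 models, its paralogue COPS7B 5, COPS3 5 and COPS5, which encodes the deneddylating enzyme, 3. COPS2, COPS4, COPS6 and COPS8 had 2 each. COPS9, the smallest subunit, had a single model of 416 nt in 3 exons without a coding region, and was the only one of the 85 genes with no coding model. GPS1, which encodes the remaining subunit under another name, had 8 models with 7 coding regions.

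Among UBE2 genes the most models were 4, in UBE2D3 and UBE2D4, E2 enzymes that work with many ligases, in UBE2E3, and in UBE2G2, an E2 of degradation at the endoplasmic reticulum. UBE2B, UBE2D2, UBE2J1, UBE2K, UBE2L3, UBE2N, UBE2Q2, UBE2QL1, UBE2S and UBE2Z had 1 each, as had the pseudogene UBE2Q2P13. UBE2F and UBE2M, the E2 enzymes of NEDD8, and UBE2L6, that of ISG15, each had a second model. In UBE2M and UBE2L6 the second model had no coding region. UBE2V1 and UBE2V2, which lack the active cysteine and act as partners of UBE2N, also had a second model each.

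Of the lengths compared, that of the 3' untranslated region differed most between the families. One model stood for each gene, the one with the longest coding region. The median 3' untranslated region was 214 nt in proteasome genes (n = 45, quartiles 120 and 379 nt), 395 nt in COP9 genes (n = 8, 233 and 661 nt) and 1287 nt in UBE2 genes (n = 31, 703 and 1706 nt), against 512 nt in all 8579 genes with a coding region (228 and 1006 nt). It was longer than 1000 nt in 3 proteasome genes (6.67%), 1 COP9 gene (12.5%) and 20 UBE2 genes (64.5%), against 25.1% of all genes. The families were not separate, since single proteasome genes reached UBE2 lengths and a few UBE2 genes had short regions.

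Coding regions were shortest in the UBE2 family. Median coding regions were 265 codons in proteasome genes, 331.5 in COP9 genes and 168 in UBE2 genes, against 335 in all genes, counted as deposited with the last codon included. Restricting the comparison to genes of at most 300 codons left the contrast in place: the median 3' untranslated region was 162 nt in 29 proteasome genes and 1250 nt in 28 UBE2 genes, against 515 nt in all 3701 such genes. The 5' untranslated region had a median of 62 nt in proteasome genes, 96.5 nt in COP9 genes and 149 nt in UBE2 genes, against 135 nt in all genes. UBE2 genes also spanned more of the genome, with a median of 32762 nt, against 11465 nt in proteasome genes and 19585 nt in all genes.

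**Figure D2:**
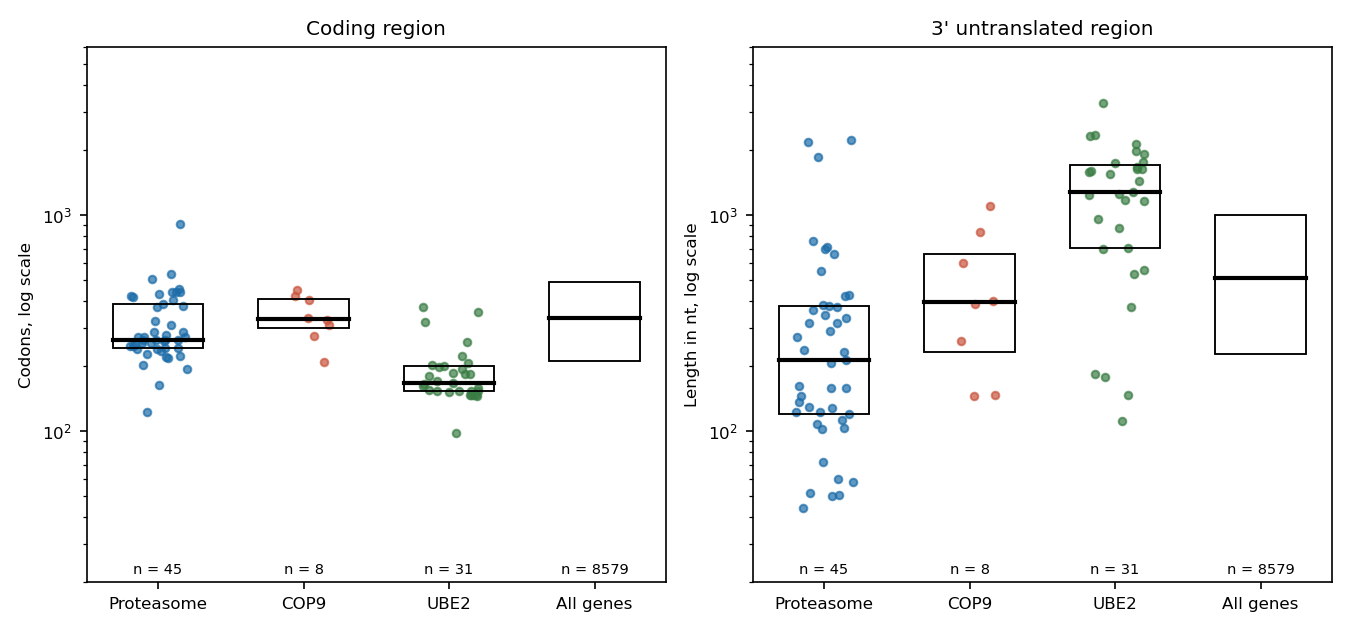
Length of the coding region in codons (left) and of the 3' untranslated region in nt (right), both on log axes, for the model with the longest coding region of each gene. Points are genes, boxes run from the 25th to the 75th percentile and thick lines are medians; the 3' medians are 214 nt for proteasome, 395 nt for COP9 and 1287 nt for UBE2 genes, beside 512 nt for all genes, for which no points are drawn.

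By role, 3' untranslated regions of the proteasome core were below the all-genes median of 512 nt except in PSMA2. The alpha subunits had 108 nt (PSMA3) to 710 nt (PSMA2), with a median of 162 nt. The standard beta subunits had 58 nt (PSMB3) to 232 nt (PSMB5), with a median of 104 nt. The immunoproteasome subunits had 50 nt in PSMB9, 52 nt in PSMB10 and 238 nt in PSMB8. The ATPases of the regulatory particle ranged from 51 nt in PSMC5 to 694 nt in PSMC2, and its other subunits from 113 nt in PSMD6 to 554 nt in PSMD7. The 3 proteasome genes over 1000 nt lay outside the core and the regulatory particle: PSMF1, an inhibitor of the core, had 2236 nt, PSME3, the nuclear activator PA28 gamma, 2180 nt, and the chaperone gene PSMD5 1851 nt. PSME1 and PSME2, whose products form the interferon-inducible activator, had 146 and 44 nt, the 44 nt being the shortest of the 84 genes.

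In the UBE2 family, UBE2G1 had the longest 3' untranslated region with 3288 nt, followed by UBE2L3 with 2362 nt and UBE2G2 with 2331 nt. The shortest were 112 nt in the pseudogene UBE2Q2P13, 147 nt in UBE2S, 178 nt in UBE2T and 185 nt in UBE2C. UBE2C and UBE2S serve the anaphase-promoting complex, the ligase that drives exit from mitosis, and UBE2T serves DNA crosslink repair in the Fanconi anaemia pathway. Of the E2 enzymes of NEDD8, UBE2M had 377 nt and UBE2F 1257 nt. In the COP9 family the range was 146 nt in COPS5 to 1105 nt in COPS8.

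Models that shared a stop but differed by at least 100 nt in the 3' untranslated region were found for 2 of 25 proteasome genes with at least 2 coding models (8%), 4 of 8 COP9 genes (50%) and 8 of 17 UBE2 genes (47.1%, 95% Wilson interval 26.2 to 69.0%), against 15.3% of all such genes. The differences in UBE2 genes were 2171 nt in UBE2G1, 1544 nt in UBE2G2, 1156 nt in UBE2D1, 1049 nt in UBE2F, 1019 nt in UBE2V2, 985 nt in UBE2J2, 242 nt in UBE2V1 and 213 nt in UBE2E2. COPS2 differed by 1314 nt, COPS7B by 525 nt, COPS6 by 284 nt and COPS8 by 155 nt. The proteasome genes were PSMA2 with 548 nt and PSME3 with 511 nt. The models compared ended at different positions, in UBE2G1 at 4269266 and 4271437 on chromosome 17. No 2 of the 19972 models shared all their introns, so the models compared also differed in splicing. Different ends of 1 isoform could not appear in such a set. The longer region must exceed 100 nt, so the length of the region moves with this count; its part was not tested.

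Alternative coding regions were frequent in all genes with at least 2 coding models, and the Wilson intervals of the 3 families all included the all-genes share. A second coding model always differed in splicing, since no 2 models shared all their introns. Among genes with at least 2 coding models, at least 2 different coding regions were present in 24 of 25 proteasome genes (96.0%), 7 of 8 COP9 genes (87.5%) and 14 of 17 UBE2 genes (82.4%), against 84.5% of all such genes. PSMG3, COPS7A, UBE2D3 and UBE2E3 were among the exceptions. In UBE2D3 the 4 models had 4 separate alternative first exons of 111 to 362 nt and shared 1 coding region of 148 codons. In UBE2E3 the 4 models shared 208 codons and in PSMG3 the 4 models shared 123 codons, whereas the 5 coding models of COPS7A shared 276 codons and had 5' untranslated regions of 137 to 372 nt.

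The 45 genes with at least 2 coding regions had 62 beside the longest one, and 32 of these (51.6%) kept the stop and moved the start. By family, 17 of 33 in proteasome genes (51.5%), 5 of 12 in COP9 genes (41.7%) and 10 of 17 in UBE2 genes (58.8%) had another start and the same stop, against 33.6% of 6224 in all genes. Another stop with the same start was found for 8 of 33, 3 of 12 and 3 of 17 in the same order, against 32.9% in all genes. The rest differed inside only, except for 1 in COPS7B and 1 in UBE2D4, which differed at both ends. Such calls rest on the coding regions as deposited, whose caller is not stated, and whether the downstream starts are used was not tested.

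In the alpha ring every alternative coding region began downstream. PSMA1 had coding regions of 264 and 239 codons, PSMA2 of 235 and 157, PSMA3 of 256, 181 and 139, and PSMA6 of 247 and 165. In PSMA3 a cassette exon (an internal exon that another model skips) of 124 nt (chromosome 14, 58252119 to 58252242) was absent from the shortest form, and in PSMA6 one of 95 nt (chromosome 14, 35307994 to 35308088) was absent from the shorter form. In PSMA2 an additional exon of 60 nt (chromosome 7, 42931096 to 42931155) went with the form of 157 codons.

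The beta ring varied in 2 standard subunits. The 4 models of PSMB5 held 264, 204, 170 and 161 codons, by 2 first exons, 2 last exons and a cassette exon of 85 nt (chromosome 14, 23027745 to 23027829). PSMB3 had coding regions of 195 and 102 codons. Of the immune subunits, PSMB8 had 2 alternative first exons with coding regions of 273 and 230 codons, and the second model of PSMB10 had no coding region.

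In the regulatory particle, the ATPase genes PSMC3, PSMC5 and PSMC6 had alternative forms. A cassette exon of 57 nt in PSMC5 (chromosome 17, 63830133 to 63830189) was divisible by 3, and the forms with and without it held 407 and 388 codons. In PSMC6 skipping of an exon of 80 nt (chromosome 14, 52708309 to 52708388) and inclusion of another of 107 nt (52709575 to 52709681) went with 289 and 283 codons, against 390 in the longest form. PSMD4 had 4 coding regions: 381 and 378 codons by alternative 5' splice sites 9 nt apart, 331 without an exon of 141 nt (chromosome 1, 151262161 to 151262301) and 272 without that exon and another of 115 nt. PSMD6, a subunit of the lid, lacked an exon of 159 nt in its shorter form (chromosome 3, 64022643 to 64022801; 443 and 390 codons). PSMD13, another lid subunit, lacked an exon of 79 nt in one model and one of 35 nt in another, and both shorter models were given the same coding region of 291 codons, against 377. PSMD2, the largest member with 909 codons, had a second form of 852 codons.

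Assembly chaperones PSMG1 and PSMG4 skipped exons of 63 nt (chromosome 21, 39179924 to 39179986) and 117 nt (chromosome 6, 3264209 to 3264325), both divisible by 3, with 289 and 268 codons in PSMG1 and 163 and 124 codons in PSMG4. PSMD9 had alternative 3' splice sites 3 nt apart, with 224 and 223 codons, and another form of 119. PSMD5 had a short form of 153 codons with an early last exon, against 505 codons. PSMD10, also known as gankyrin, had 227 and 152 codons by alternative 5' splice sites 79 nt apart.

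COP9 genes combined several events. COPS3 had 5 coding regions of 424, 404, 366, 357 and 294 codons, with a cassette exon of 174 nt (chromosome 17, 17260301 to 17260474) skipped in 1 of 5 models and one of 130 nt (17276035 to 17276164) skipped in 2 and lengthened to 149 nt in 1. COPS2 had alternative 3' splice sites 21 nt apart, giving 451 and 444 codons, and COPS6 had sites 3 nt apart, giving 328 and 327. COPS4 skipped an exon of 85 nt (chromosome 4, 83068438 to 83068522) and ended at another stop, with 353 codons against 407. COPS5 had coding regions of 335 and 271 codons and COPS8 of 210 and 161, each pair with 1 stop. COPS7B included an exon of 68 nt (chromosome 2, 231801140 to 231801207) in 1 of 5 models, with 279 codons.

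Cassette exons were present in 12 of 27 proteasome genes with at least 2 models (44.4%), 6 of 8 COP9 genes (75.0%) and 13 of 20 UBE2 genes (65.0%, 95% Wilson interval 43.3 to 81.9%), against 49.3% of all such genes. Inside coding regions, 9 of 31 cassette exons had a length divisible by 3 (29.0%): 5 of 13 in proteasome, 1 of 6 in COP9 and 3 of 12 in UBE2 genes, against 45.3% of 2019 in all genes. Alternative first exons, which do not overlap one another, occurred in 7 of 27 proteasome genes (25.9%), 2 of 8 COP9 genes (25.0%) and 7 of 20 UBE2 genes (35.0%), against 18.0% of all such genes. Alternative last exons occurred in 4, 0 and 3 of these genes, against 26.9% of all such genes, where 0 of 8 allows a share of up to 32.4% (Wilson interval). In PSMA1 and PSMG2 both kinds of call rest only on a model without a coding region that overlaps no other model of the gene. Alternative 3' splice sites were found in 5 of 27 proteasome genes and 3 of 8 COP9 genes but 0 of 20 UBE2 genes (Wilson interval up to 16.1%), against 23.3% of all such genes. Alternative 5' splice sites were found in 9, 2 and 3 genes in the same order of families (25.2% of all such genes), and retained introns, which lie inside an exon of another model, in 3, 3 and 1 (17.3% of all such genes). Models without a coding region made up 5.56% of proteasome, 10.3% of COP9 and 10.9% of UBE2 models, against 13.6% of all models.

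**Figure D3:**
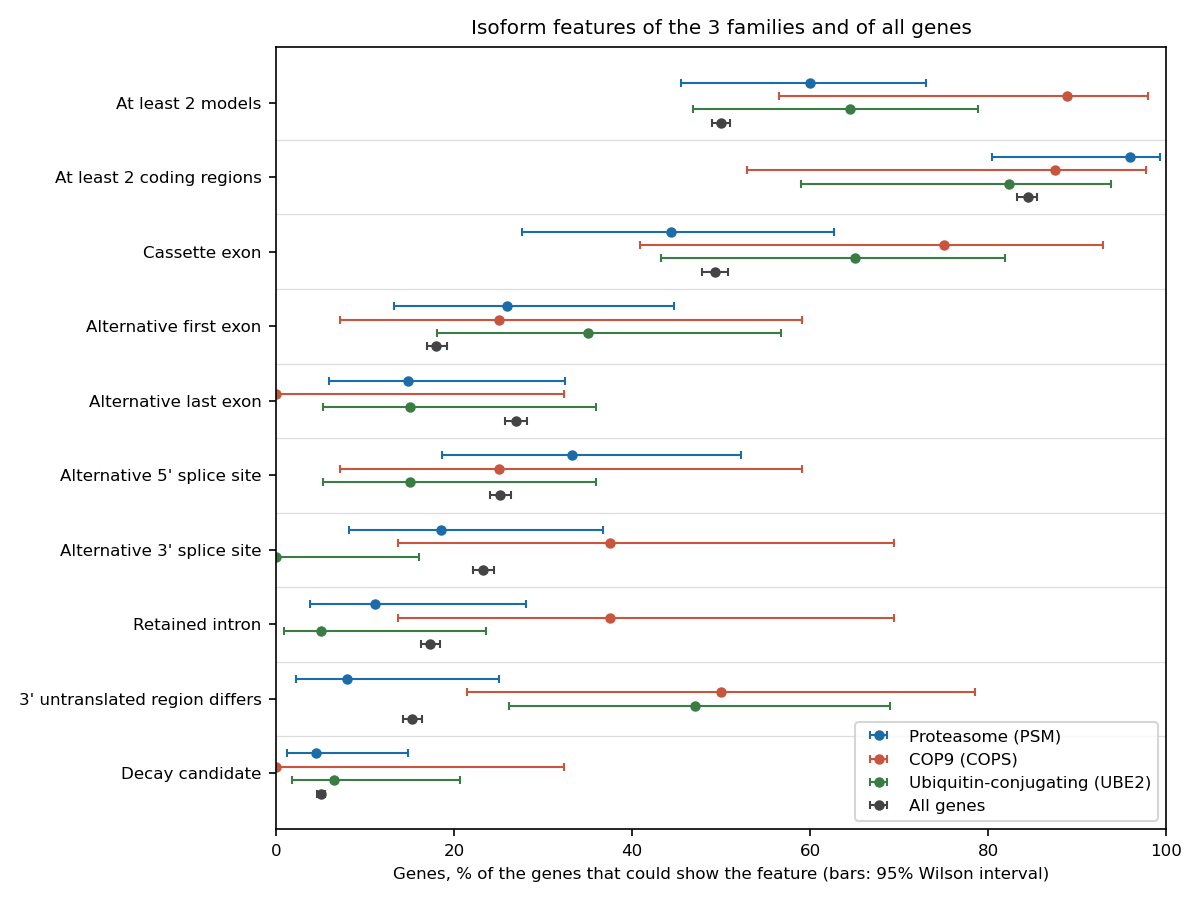
Share of genes (x axis, %) that show each isoform feature (y axis) in the 3 families and in all genes; bars are 95% Wilson intervals. The denominators are all genes for the top feature, genes with at least 2 coding models for coding regions and 3' untranslated regions, genes with a coding model for decay candidates, and genes with at least 2 models for the rest; the UBE2 and COP9 intervals for 3' untranslated regions lie above the all-genes share of 15.3%, those for at least 2 models in COP9 genes (50%) and first exons in UBE2 genes (18.0%) lie just above it, and that for 3' splice sites in UBE2 genes lies below 23.3%.

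Several groups of paralogous E2 genes were built from coding exons of the same lengths, but UBE2F and UBE2M, both E2 enzymes of NEDD8, shared 0, with 9 and 6 coding exons. UBE2A and UBE2B, the homologues of yeast RAD6, each had 153 codons in 6 coding exons with coding parts of 44, 81, 26, 90, 89 and 129 nt. UBE2D1, UBE2D2 and UBE2D3 each had 148 codons in 7 coding exons of 24, 64, 32, 78, 106, 94 and 46 nt. In its longest form UBE2D4 had the same lengths after the first coding exon, which held 84 coding nt. UBE2E1, UBE2E2 and UBE2E3 shared the lengths 51, 133, 148 and 98 nt after a coding exon that differed, of 152, 176 and 194 nt. UBE2V1 and UBE2V2 shared 149, 126 and 147 nt after 22 and 16 nt. Their 3' untranslated regions were less alike: 1986, 1630 and 1444 nt in UBE2D1, UBE2D2 and UBE2D3, and 706, 961 and 535 nt in UBE2E1, UBE2E2 and UBE2E3, although UBE2A and UBE2B had 1168 and 1181 nt. Outside the E2 family, PSMB7 and PSMB10 shared 6 of 8 coding exon lengths in order, PSME1 and PSME2 shared 8 of 11 and PSMB6 and PSMB9 shared 3 of 6. PSMB5 and PSMB8, which exchange in the same position of the ring, shared 0, with 3 and 6 coding exons.

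Several of the skipped exons belonged to these shared sets. In UBE2V1 (chromosome 20, 50096672 to 50096820) and UBE2V2 (chromosome 8, 48043033 to 48043181) an exon of 149 nt at the same place in the order was skipped in 1 of 2 models, and both shorter models had a 5' untranslated region of 136 nt and 59 codons, against 148 codons in UBE2V1 and 146 in UBE2V2. In COPS7A (chromosome 12, 6727926 to 6728001) and COPS7B (chromosome 2, 231791733 to 231791808), which shared 5 of 7 coding exon lengths in order, an exon of 76 nt was skipped; the 2 COPS7A models without it had no coding region, and the COPS7B model without it had 158 codons against 309. UBE2A skipped its exon of 90 nt (chromosome X, 119581507 to 119581596), divisible by 3, with 123 codons against 153, while UBE2B had a single model. UBE2D1 skipped its exon of 32 nt (chromosome 10, 58361495 to 58361526), with 110 codons against 148, whereas the 4 models of UBE2D3 had no cassette exon and the single model of UBE2D2 could show none. In UBE2D4, which also has an exon of 32 nt, the only cassette exon called was another of 98 nt. Exons skipped only together with a neighbour are not called by the rule.

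**Figure D4:**
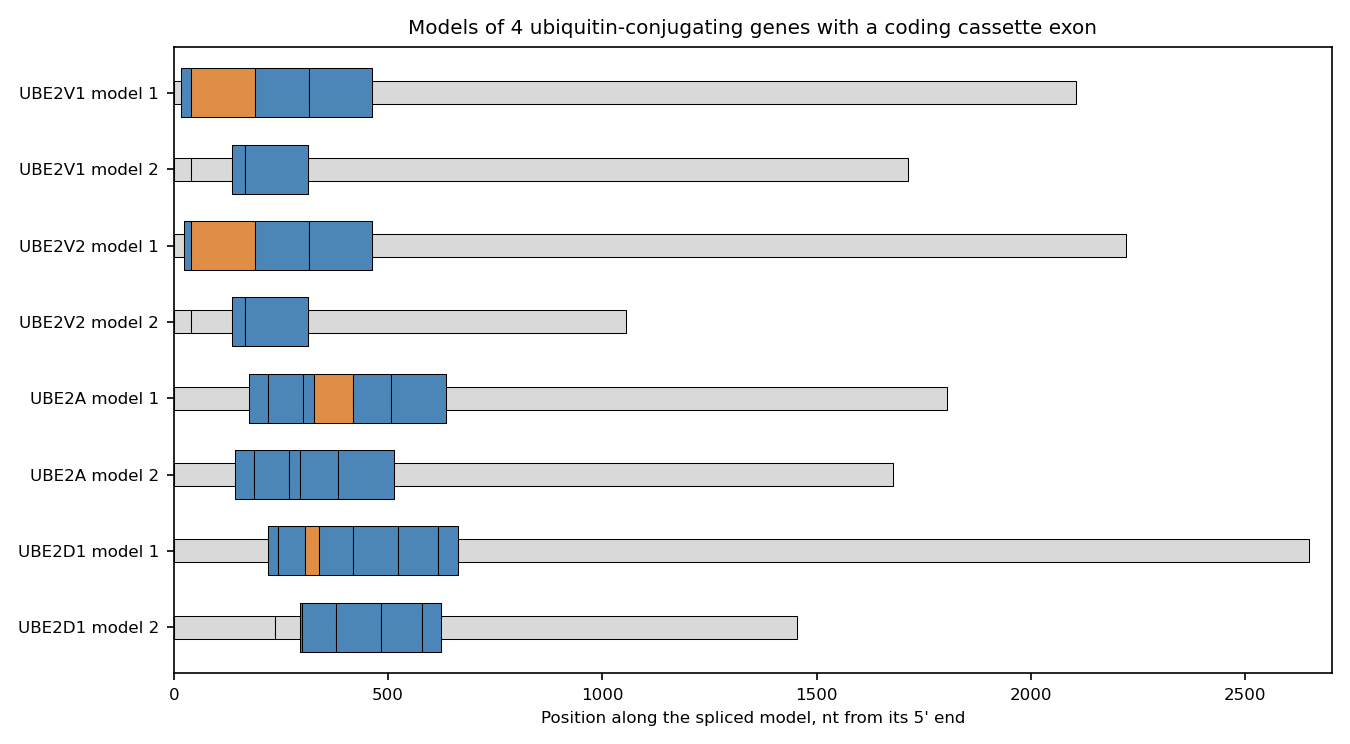
Spliced models of UBE2V1, UBE2V2, UBE2A and UBE2D1 drawn to scale (x axis, nt from the 5' end; y axis, models by falling number of codons), with coding parts as tall boxes, untranslated parts as low boxes and cassette exons in orange. UBE2V1 and UBE2V2 each show a skipped exon of 149 nt and a shorter coding region of 59 codons; lengths, not sequences, were compared.

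Other E2 genes had exons of their own. UBE2C skipped an exon of 87 nt (chromosome 20, 45814384 to 45814470), divisible by 3, with 151 codons against 180. UBE2G1 skipped one of 98 nt (chromosome 17, 4296717 to 4296814), with 106 codons against 171. UBE2J2, an E2 at the endoplasmic reticulum, had a form of 260 codons with an exon of 131 nt (chromosome 1, 1267862 to 1267992) and 208 codons without it or with a version of 260 nt. UBE2H, with 184 codons, had a model of 111 codons whose coding region ended 1 nt before the end of the model. UBE2T and UBE2W had skipped forms with no coding region, lacking exons of 70 nt (chromosome 1, 202334989 to 202335058) and 103 nt (chromosome 8, 73825147 to 73825249). UBE2E1 had 3 alternative first exons with 194, 161 and 157 codons, UBE2D4 had coding regions of 168, 148 and 123 codons, and UBE2G2 had 3 last exons, with coding regions of 166 and 138 codons and 2 models without one.

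Candidates for nonsense-mediated decay, here coding regions whose end lies over 50 nt before the last exon junction, were found in 2 of 45 proteasome genes (4.44%), 0 of 8 COP9 genes and 2 of 31 UBE2 genes (6.45%), against 5.01% of all genes with a coding model. In PSMB3 the model without an exon of 178 nt (chromosome 17, 38760431 to 38760608) ended 52 nt upstream of the last junction, with 102 codons against 195. In PSME1 a retained intron of 78 nt (chromosome 14, 24138118 to 24138195) went with a stop 252 nt upstream and 165 codons against 250. UBE2E2 without its exon of 133 nt (chromosome 3, 23499608 to 23499740) ended 96 nt upstream, with 93 codons against 202. In UBE2F the model without an exon of 68 nt (chromosome 2, 238016566 to 238016633) ended 130 nt upstream, with 103 codons against 186, while a model without an exon of 30 nt (237987963 to 237987992) had 176 codons and no early stop. Just under the threshold, both models of UBE2G1 ended 37 nt upstream. The count depends on where the coding regions were placed. Some models that skip an exon not divisible by 3, as in UBE2V1, UBE2V2 and COPS3, were given a later start and the same stop. Others, as in UBE2T and UBE2W, were given no coding region. Neither kind could be called, so low counts do not show that early stops are rare. The rule describes the models and does not measure decay.

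**Figure D5:**
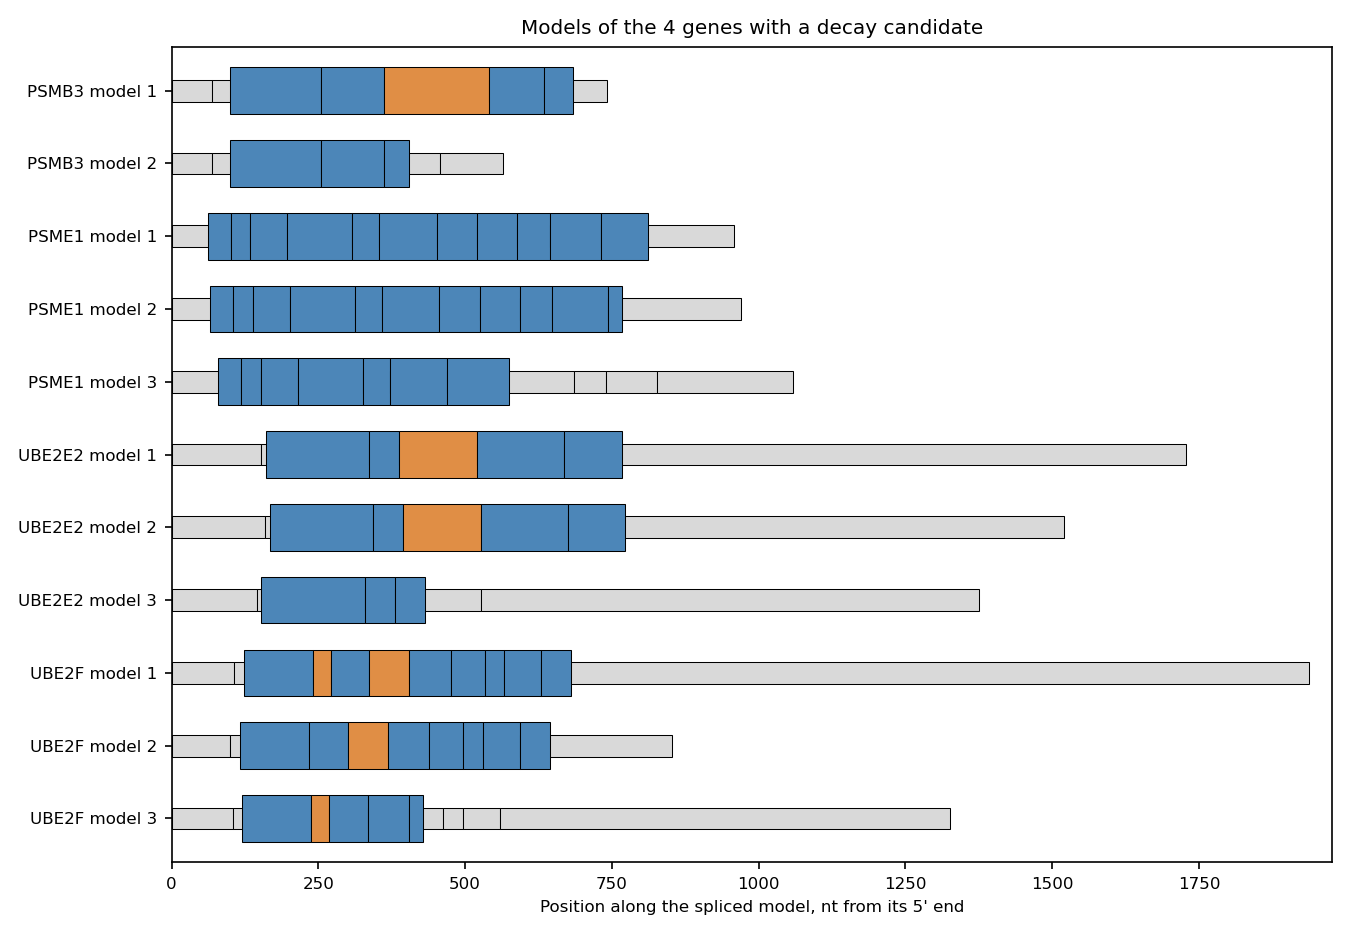
Spliced models of PSMB3, PSME1, UBE2E2 and UBE2F drawn to scale (x axis, nt from the 5' end; y axis, models by falling number of codons), with coding parts as tall boxes, untranslated parts as low boxes and cassette exons in orange. In the last model of each gene the coding region ends before the last exon boundary, by 52 nt in PSMB3, 252 nt in PSME1, 96 nt in UBE2E2 and 130 nt in UBE2F.

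Promoter sequences were compared for a feature that the choice by name did not use, although the motifs were chosen with earlier results known. NFE2L1, which had 2 models, encodes the factor known to raise proteasome genes through antioxidant response elements when the proteasome is inhibited. The core of this element, TGACNNNGC with N for any base, on either strand, was searched in the 250 bases upstream of the RefSeq gene start (GRCh38.p14), available for 71 of the 85 genes. It was present in 10 of 39 proteasome promoters (25.6%), 2 of 8 COP9 promoters (25.0%) and 4 of 24 UBE2 promoters (16.7%), against 12.6% of 7389 promoters of genes with a model and 11.0% of all 27305 promoters. Of the matched proteasome genes, only PSMB3, PSMD3 and PSMD12 encode standard subunits of the core or the regulatory particle. The others encode an immunoproteasome subunit, activators or assembly chaperones. Shares by role and intervals were not worked out, and whether the families differ was not tested. The matches in proteasome and COP9 promoters are shown with 10 bases on either side, 5' to 3' on the strand of the match, with the matched letters in capitals and the distance from its farthest base to the gene start:
PSMB3 (chr17:38752627-38752655, plus strand, 104 bases upstream): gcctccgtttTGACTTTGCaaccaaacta
PSMB9 (chr6:32854034-32854062, minus strand, 148 bases upstream): ccgagacaagTGACGAGGCagccccgccc
PSMD12 (chr17:67366724-67366752, minus strand, 165 bases upstream): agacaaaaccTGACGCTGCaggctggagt
PSMD3 (chr17:39980760-39980788, plus strand, 37 bases upstream): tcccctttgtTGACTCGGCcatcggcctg
PSMD5 (chr9:120843038-120843066, minus strand, 134 bases upstream): tggctacagtTGACACGGCcctaacggag
PSMD9 (chr12:121888631-121888659, minus strand, 149 bases upstream): gcgcctgtggTGACCCGGCaggagtagcg
PSMD9 (chr12:121888678-121888706, plus strand, 102 bases upstream): cggcttccggTGACCCAGCtccgccctaa
PSME1 (chr14:24136098-24136126, plus strand, 86 bases upstream): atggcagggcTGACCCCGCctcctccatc
PSME2 (chr14:24146767-24146795, minus strand, 175 bases upstream): ccctggactgTGACCCAGCcagcaccgcc
PSMG1 (chr21:39183616-39183644, minus strand, 183 bases upstream): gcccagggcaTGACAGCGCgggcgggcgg
PSMG2 (chr18:12658689-12658717, plus strand, 39 bases upstream): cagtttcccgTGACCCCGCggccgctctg
COPS3 (chr17:17281280-17281308, minus strand, 52 bases upstream): ccagcggaagTGACGTCGCcgctcgcgag
COPS8 (chr2:237085811-237085839, plus strand, 68 bases upstream): cagcgatgtcTGACGGCGCcccggaactg
The match of PSMG2 lay inside the last exon (12658574 to 12659078) of its model without a coding region, whereas its coding model started at 12703039. It is therefore not next to the start of the coding model. The second match of PSMD9 and that of PSME2 were the same in all 9 letters, as were those of PSME1 and PSMG2. A CCAAT box, on either strand, was present in 18 of 39 proteasome promoters (46.2%), 4 of 8 COP9 promoters (50%) and 7 of 24 UBE2 promoters (29.2%), against 36.8% of promoters of genes with a model. A GC box, GGGCGG, was present in 25 of 39 (64.1%), 4 of 8 (50%) and 21 of 24 (87.5%) in the same order of families, against 68.2%. These letters are matches in sequence and not evidence of binding.

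Other genes of the pathway, from lists of 51 genes, had a model in 41 cases, again without the share of all known genes beside it. Of these 41 genes, 22 had at least 2 models, against 50% of all genes. Of the E1 enzymes 6 of 8 were present, with 4 models for UBA3, which activates NEDD8, and none for UBA7 or for NAE1, the partner of UBA3. NEDD8 itself had 4 models without a coding region. Of 10 further proteasome genes 8 were present, led by PAAF1 with 8 models and the deubiquitinase gene UCHL5 with 5. Of 14 genes of cullin ligases 10 were present, including CUL1 with 1 model and CUL2 with 4, and CUL3, CUL4A, CUL4B and CUL5 had none. Of 8 E2 enzymes with other names 7 were present, and BIRC6 had none.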

How the data were processed

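The libraries were prepared from polyadenylated RNA with 15 PCR cycles (17 for monosomes), per the labels. The values used are other than expression: start and end positions in nt of exons and coding segments, which the authors deposited as 1 set of models. PacBio is the source named on each line, per the file, and the submitters' processing notes name Salmon 1.9.0 and STAR 2.7.8a, with no role for either. Genome build, model builder, coding region caller and filters are not stated in the sources used here; coordinates are printed as deposited. Groups follow the labels' cell type, fraction and read type, but no value exists per library, so no test between groups was run.

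Exons, introns and coding regions were compared between the models of a gene with Python 3.11.15. A cassette exon is an internal exon whose flanking splice sites are joined directly in another model. A retained intron lies inside an exon of another model. Alternative splice sites share the other end of the intron and overlap in the exon. First and last exons are alternative when they do not overlap. The event rules were checked on constructed models. Gene symbols of all 85 members were found in a table of gene names. RefSeq promoters were matched by symbol, and, but for the match in PSMG2, their positions were not compared with those of the models. Members, gene lists, motifs and paralogue pairs were chosen with earlier results of these data known. Genes are named if they were among the 6 of a family with the most models, had a decay candidate, a coding cassette exon, no model, or the 2 largest 3' differences; others are examples chosen after their values were seen. Some genes are counted but not reported by name here.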

Additional observations from a re-analysis of the deposited data

How the results depend on the processing

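The catalogue carries no depth, so how fully the isoforms of a gene were sampled is unknown, and no model exceeds 5877 nt. No paired analysis was possible because the models carry no value per library. Of 51 repeats under other settings, 43 stayed close to the values above: counts within 1.5 times, medians within the binomial interval of the median. For the 8 COP9 genes that interval ran from the lowest to the highest gene, so COP9 medians could hardly leave it. For the 3' untranslated region it was 146 to 1105 nt in COP9 genes and 877 to 1643 nt in UBE2 genes. If both forms had to occur in 2 or more models, genes with a cassette exon numbered 0 in the proteasome, 2 in the COP9 and 0 in the UBE2 family, and genes with a retained intron 1, 0 and 0; genes with 2 or 3 models cannot meet this requirement. With a stop over 100 nt upstream of the last junction, 1 proteasome and 1 UBE2 gene had a decay candidate. The median 3' untranslated region over all coding models, a setting chosen after seeing the data, was 232 nt in proteasome, 535 nt in COP9 and 897 nt in UBE2 genes. The planned comparison of coding regions with RefSeq protein lengths was not run, since protein sequences were not used here.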

Other observations

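Among the members, 2 genes held models that did not overlap one another. A PSMA1 model of 2 exons without a coding region lay 90490 nt upstream of the other 4 (chromosome 11, 14610846 to 14643662), and a PSMG2 model without a coding region lay 43960 nt upstream of the coding one (chromosome 18, 12658219 to 12659078). They count toward the models of these genes and give both genes their alternative first and last exons. Of the 85 genes, 2 pairs lay within 100 kb of each other: PSME1 and PSME2 faced each other with their 3' ends 4397 nt apart on chromosome 14, and PSMB8 and PSMB9 stood back to back 9484 nt apart on chromosome 6. Chromosome 17 held the most members with 11, a count that was not set against all genes on that chromosome. The rule on names left out 4 antisense genes with 8 models.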
